A study of Mus musculus with 4 samples.

Results

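The mus and the cas copy of chromosome X were compared within wild-type (WT) fibroblasts by Hi-C, a method that joins and sequences DNA fragments lying close together in the nucleus. The cells were tail tip fibroblasts (TTF) of female mice from a cross of mus and cas parents, so that the copies carry different sequence variants and reads could be assigned to either. The comparison rests on 2 of the 4 samples of the study, the WT replicates; the other samples are Sirt7-/- fibroblasts and were not used. The authors combined the WT replicates before making the matrices, which left 1 matrix a copy at each bin size, 4 of the 8 matrices in the series. Each value is the correlation of 1 bin's contact profile with another's, so it tells how alike their contacts are and not how often the pair meets. The members are all bins with data on both copies, 588 of 683 bins of 250 kb (86.1%) and 1461 of 1707 bins of 100 kb (85.6%). The labels leave unsaid which copy was the inactive one, the age of the animals, whether a culture was clonal and whether the WT replicates came from separate animals. Correlations of contacts hold no expression values, so the cell type could not be checked with marker genes.

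In female mammals 1 copy of the X chromosome is silenced in each cell by a process that starts from Xist, a noncoding RNA that coats the chromosome it is made from. The silenced copy is known to fold into a pair of very large domains, called megadomains, that meet at Dxz4, a tandem repeat bound by the architectural protein CTCF. The active copy is known to show the folding of other chromosomes, in which gene-rich regions (compartment A) and gene-poor regions (compartment B) each share contacts with their own kind.

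The hinge locus was placed in the bin chrX:75500001-75750000 (mm10) by the midpoint of its landmark, which runs on into the next bin. This landmark is 4933407K13Rik, the long noncoding host transcript of Dxz4 at chrX:75725458-75764699 on the minus strand. Firre at chrX:50563120-50635321 is a noncoding RNA locus that holds its own tandem repeat, and Xist lies at chrX:103460373-103483233. The promoters of these 3 noncoding loci are printed, from RefSeq (GRCm38.p6, the build of mm10), to show the landmarks by their sequence; the scores themselves were placed by gene midpoint. Each runs from 250 bases before to 50 bases after the start, 5' to 3' on the minus strand, with the transcribed bases in capitals.
4933407K13Rik, chrX:75764650-75764949: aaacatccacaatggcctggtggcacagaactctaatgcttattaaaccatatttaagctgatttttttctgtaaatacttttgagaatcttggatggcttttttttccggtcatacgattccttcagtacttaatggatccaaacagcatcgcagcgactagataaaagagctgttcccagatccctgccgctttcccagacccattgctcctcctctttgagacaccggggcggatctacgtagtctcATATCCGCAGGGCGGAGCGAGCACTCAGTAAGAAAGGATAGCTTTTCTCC
Firre, chrX:50635272-50635571: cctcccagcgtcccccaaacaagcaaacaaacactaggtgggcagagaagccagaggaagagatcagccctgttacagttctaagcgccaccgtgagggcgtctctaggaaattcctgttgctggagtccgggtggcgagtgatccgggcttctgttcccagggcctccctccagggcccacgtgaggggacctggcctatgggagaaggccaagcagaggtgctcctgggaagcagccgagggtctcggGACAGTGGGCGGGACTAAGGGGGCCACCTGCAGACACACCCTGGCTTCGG
Xist, chrX:103483184-103483483: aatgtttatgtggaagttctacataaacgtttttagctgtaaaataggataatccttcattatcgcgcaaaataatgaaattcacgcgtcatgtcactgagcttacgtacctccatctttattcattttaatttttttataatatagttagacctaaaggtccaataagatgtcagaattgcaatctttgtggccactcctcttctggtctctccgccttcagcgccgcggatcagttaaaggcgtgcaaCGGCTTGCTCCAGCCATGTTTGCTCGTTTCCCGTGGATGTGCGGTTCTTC
The core of the CTCF motif was searched on both strands and had no match in these windows, nor in those of Jpx, Ftx and Rlim. It occurred in 21 of 1223 promoters of the same length on chromosome X (1.72%). The lack of a match says only that the motif is not in these windows, and the windows do not cover the Dxz4 repeat.

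There are no replicates to compare, so no test between the copies was possible and each difference lacks a replicate check. A range in parentheses gives the extremes found when 17 blocks of 10 Mb were left out 1 at a time. They show how far 1 region moves a value and do not serve as confidence intervals. The number of reads is unknown. The stand-ins for it were the mean correlation of adjacent bins, 0.149 on mus and 0.196 on cas, and the SD of all pairs at least 2 Mb apart, 0.0663 on mus and 0.130 on cas. At 100 kb the adjacent-bin means were 0.0459 and 0.0690. Both stand-ins were lower on mus. They come from the same correlations as the results, so they cannot tell depth from folding. At 250 kb, 91 bins on mus and 92 on cas had no data. The part of depth in the differences between the copies was not tested. Bins without data lay mainly at 0 to 10 Mb (21 of 40), 20 to 30 Mb (23) and 30 to 40 Mb (23).

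**Figure D1:**
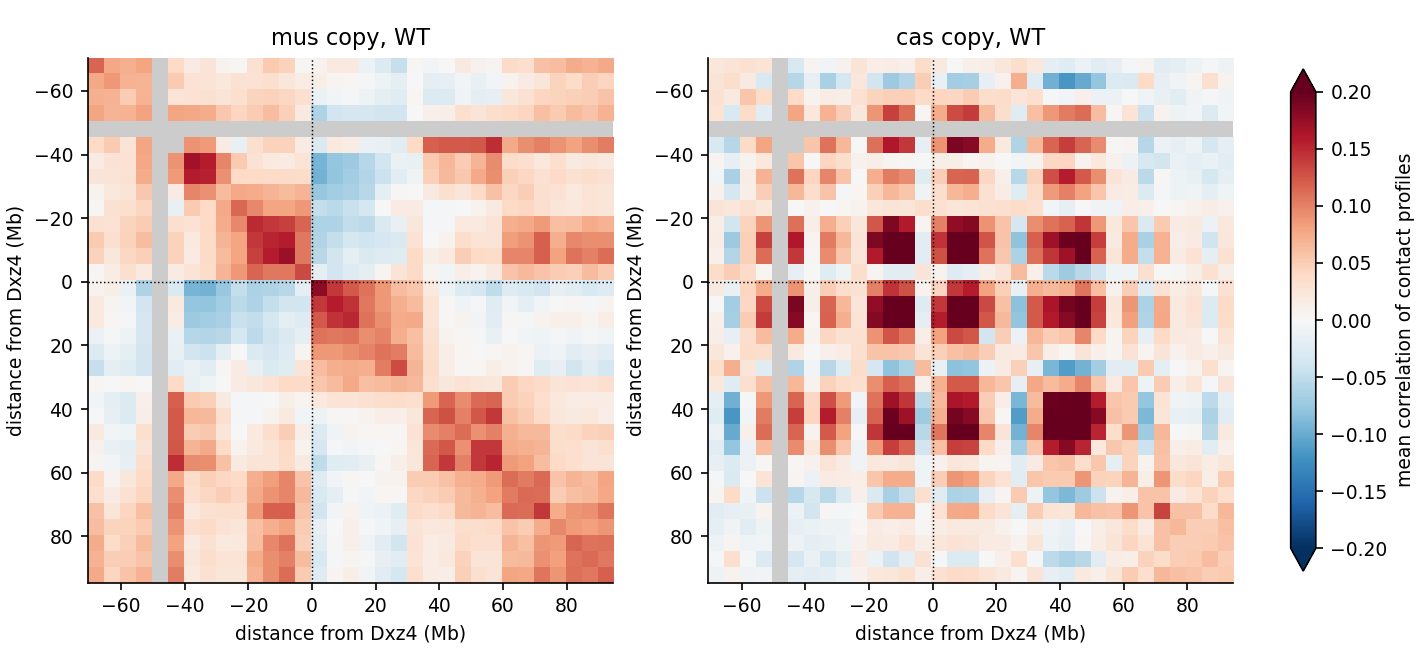
Mean correlation of contact profiles over squares of 5 Mb on the mus (left) and cas (right) copy of WT, with both axes in Mb from Dxz4, dotted lines at Dxz4 and grey where there were no data; both panels share 1 colour scale, on which the darkest shade also stands for values beyond 0.20 in size. Mus shows a block on either side of Dxz4 with values below 0 between them, and cas shows a plaid of alternating regions that runs across Dxz4.

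The first question was where contact profiles divide. On mus, bins on the same side of Dxz4 had alike profiles and, from 5 to 50 Mb apart, bins facing each other across it had opposed ones on average. On cas, pairs across were lower only at short range. At 5 to 10 Mb on mus, the mean correlation was 0.0954 on the left (lower coordinates), 0.0887 on the right and -0.0436 across Dxz4. For pairs 10 to 20 Mb apart the values were 0.0708, 0.0727 and -0.0418. Left and right were thus close to each other at both distances, while pairs across were below 0. On cas the pairs across were not lower from 10 Mb on. At 10 to 20 Mb cas had 0.0332 on the left, 0.0348 on the right and 0.127 across.

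The Dxz4 contrast is the same-side mean minus the across mean at equal distance. For pairs 2 to 5 Mb apart it was 0.107 on mus and 0.0971 on cas, on 150 pairs across, so the copies differed little there. Under 1 Mb, on 3 pairs across only, the contrast was -0.0318 on mus and 0.0666 on cas. At 5 to 10 Mb it was 0.133 on mus and 0.0692 on cas. From 10 to 50 Mb the copies differed in sign. At 10 to 20 Mb the contrast was 0.113 on mus (0.101 to 0.126) and -0.0934 on cas (-0.214 to 0.0293). At 20 to 50 Mb it was 0.0536 on mus (0.0436 to 0.0656) and -0.0349 on cas (-0.0562 to -0.0182). No single block decided the sign on mus in these classes. On cas 1 block did at 10 to 20 Mb, where the value was 0.0293 once the block from 60 to 70 Mb was left out. Leaving out the block that holds Dxz4, from 70 to 80 Mb, gave -0.214. The 20 to 50 Mb value on cas moved to -0.0182 and -0.0562 without the same blocks.

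The division on mus did not reach the whole chromosome. For pairs 50 to 100 Mb apart the contrast was -0.0339 on mus and -0.0242 on cas. On mus, right-hand pairs at this distance averaged -0.00923 while pairs across averaged 0.0244. Averaged over all distances with weights by the number of pairs across, most of which are far apart, the contrast was -0.000178 on mus (-0.0172 to 0.00956) and -0.0289 on cas (-0.0467 to -0.0144), so that on mus it had no settled sign. The choice of weights set this. With weights by same-side pairs, an alternative chosen after seeing the data, it was 0.0664 on mus and -0.0294 on cas. The lower end of the mus range, -0.0172, came without the block from 80 to 90 Mb, and the upper end, 0.00956, without the block from 160 to 170 Mb.

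**Figure D2:**
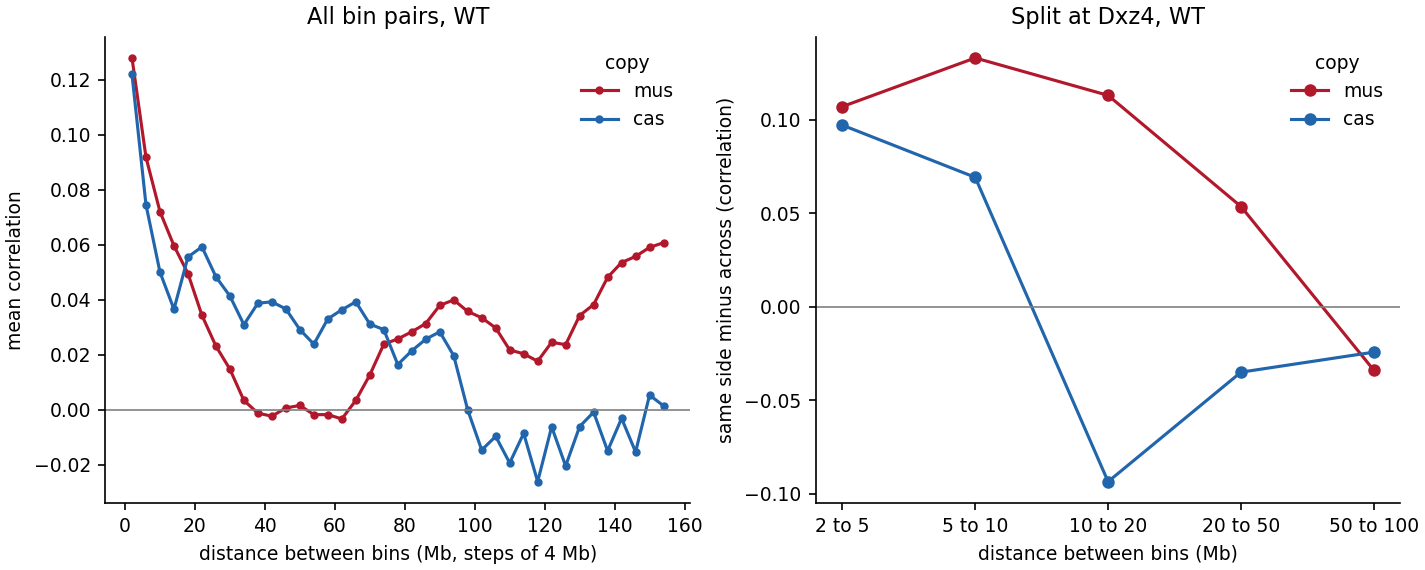
Left, mean correlation of all WT bin pairs (y axis) by distance in steps of 4 Mb (x axis, Mb) for mus (red) and cas (blue); right, the Dxz4 contrast, same side minus across, in 5 classes of distance. The mus contrast stays above 0 from 2 to 50 Mb, at 0.113 for pairs 10 to 20 Mb apart, where cas has -0.0934.

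To place the division, the chromosome was split at each of 432 bins in turn. For pairs 2 to 50 Mb apart, a limit also chosen after seeing the data, the Dxz4 bin ranked 7 of 432 on mus with 0.0640 (0.0533 to 0.0769), and the highest contrast was 0.0653 at 75.0 Mb, 2 bins to its left. The median over all splits was 0.00123. On cas the Dxz4 bin ranked 344 with -0.0380 (-0.0664 to -0.00878), and the highest value, 0.0514, lay at 139 Mb. Its ends on cas came from the blocks next to and holding Dxz4: -0.00878 when 60 to 70 Mb was left out and -0.0664 when 70 to 80 Mb was. At 100 kb the mus contrast was 0.0223, rank 20 of 1075, and its highest value, 0.0230, lay at 75.0 Mb again. Over all distances the Dxz4 bin ranked 204 on mus and 364 on cas.

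**Figure D3:**
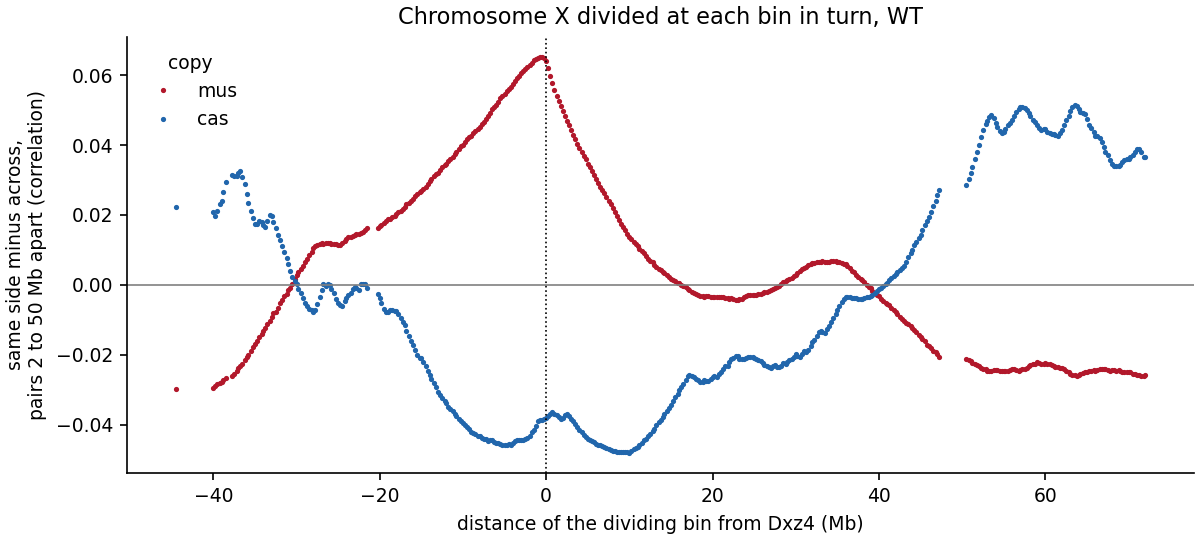
Same-side minus across contrast (y axis, pairs 2 to 50 Mb apart) when WT chromosome X is divided at each 250 kb bin in turn (x axis, Mb from Dxz4) for mus (red) and cas (blue). The highest peak of mus lies next to Dxz4, where the Dxz4 bin reads 0.0640, and cas is at -0.0380 there and peaks far to the right.

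A direction score placed the turn bin by bin. It is the mean correlation of a bin with bins 2 to 20 Mb to its right minus that with bins 2 to 20 Mb to its left. On mus it was -0.140 at 1.75 Mb left of Dxz4, -0.0234 at 2 bins left, 0.141 in the Dxz4 bin and 0.313 in the next bin to the right. The last was the highest of 432 bins on mus, and the lowest, -0.179, lay 4.00 Mb left of Dxz4. Of the 80 bins within 20 Mb left of Dxz4, 61 had a score below 0 on mus and 27 on cas. Of the 80 within 20 Mb to the right, 55 were above 0 on mus and 27 on cas. In the Dxz4 bin cas had -0.00824, and its own extremes, 0.247 and -0.246, lay at 112 and 128 Mb.

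At 100 kb a boundary score was computed for 1405 bins, from the mean correlation of pairs within 1 Mb on either side less that of pairs spanning the bin. Spanning pairs are farther apart, and the score makes no allowance for distance. The Dxz4 bin had 0.0416 on mus, at the 99.5 percentile of that copy, and 0.0236 on cas, at the 68.9 percentile. The highest score on mus, 0.0635, lay 300 kb left of Dxz4 at chrX:75400001-75500000, which holds Cmc4, Mtcp1 and Brcc3. Brcc3 encodes a deubiquitinase of a DNA repair complex. Its bin on cas had 0.0161. With a window of 500 kb the highest mus score moved to 50.9 Mb, near Firre, with 0.0697, and with 2 Mb it was at 75.1 Mb with 0.0638. With the 1 Mb window Firre itself had 0.0249 on mus (98.2 percentile) and 0.0363 on cas (83.1 percentile).

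Named bins had to lie at least 1 Mb apart, so other bins beside the mus peak near Dxz4 were passed over. The bin of Dkc1, for example, had 0.0467 on mus. Under this rule the next gene-holding bins on mus were those of Smarca1, a chromatin remodelling ATPase gene, with 0.0446, and Rps6ka6, a ribosomal S6 kinase gene, with 0.0409. Smarca1 was high on cas as well, with 0.0909. The highest score of cas, 0.110, lay at 47.6 Mb, near the bin of Smarca1. Among gene-holding bins the highest on cas were Ssxa1, of a family expressed in testis, with 0.0962 against 0.00892 on mus, and Smpx, which encodes a small muscle protein, with 0.0940 against 0.00657. Across bins the boundary scores of the copies correlated at 0.209, a description over neighbouring bins that share data. Among the top 5% of each copy (70 bins), 6 bins were shared (8.57% of each). Within 1 Mb of Dxz4 lay 13 of the 70 top bins of mus and 0 of those of cas. Neighbouring bins share most of their windows, so these 13 are not separate boundaries. With a window of 500 kb the counts were 8 of 71 on mus and 1 of 71 on cas.

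The second question was how similarity falls with distance. Mus fell steeply to near 0 by 36 Mb and rose again at the far end, while cas fell, levelled off and lay near or below 0 beyond 96 Mb. Under 1 Mb the mean correlation was 0.145 on mus and 0.173 on cas. From 2 to 5 Mb mus was higher, with 0.113 against 0.0941, a difference of 0.0193 (0.0113 to 0.0341). From 5 to 10 Mb mus had 0.0833 and cas 0.0650. The order then turned. Pairs 20 to 50 Mb apart averaged 0.0105 on mus and 0.0419 on cas, a difference of -0.0314 (-0.0386 to -0.00673). Without the block from 80 to 90 Mb, which adjoins the Dxz4 block, this difference was -0.00673, and without that block the 2 to 5 Mb difference was 0.0341. In steps of 4 Mb, mus lay below 0 from 36 to 44 Mb and from 52 to 64 Mb, with -0.00329 at 60 to 64 Mb where cas had 0.0364.

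The far ends of the chromosome had profiles correlated above 0 on mus. Pairs 100 to 170 Mb apart averaged 0.0335 on mus and -0.0114 on cas, a difference of 0.0449 (0.0393 to 0.0488). The mus mean rose from 0.0177 at 116 to 120 Mb to 0.0608 at 152 to 156 Mb, where cas had 0.00145. All pairs this far apart lie across Dxz4. At 100 kb the sign of each of these differences was the same, with 0.00526 and -0.00237 for pairs beyond 100 Mb.

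The third question was how strongly A and B separate. The first principal component of cas set the classes: its top and bottom 20% of bins were A and B, 118 bins each, with 350 and 57 protein-coding genes. On cas the pairs within A averaged 0.132, pairs within B 0.299 and pairs between them -0.149. The A/B contrast, within minus between, was therefore 0.363 (0.355 to 0.372) on cas, which chose the classes. On mus the same bins averaged 0.0278 within A, 0.0351 within B and 0.0197 between, a contrast of 0.0117 (0.00990 to 0.0157), or 3.23% of that of cas. All 3 kinds of pair were above 0 on mus, so that A and B bins were not opposed there.

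Classes that used neither matrix gave the same order. With the 118 bins of most protein-coding genes against 118 of fewest, the contrast was 0.131 on cas and 0.00882 on mus, 6.75% of cas. Within the left side of Dxz4 alone, with classes from cas, it was 0.347 on cas and 0.0227 on mus. On the right it was 0.378 and 0.0181. Both mus values exceed the 0.0117 of all pairs together, so the mus contrast was larger once pairs across Dxz4 were left out, but still under 10% of cas. Among same-side pairs with classes from cas, only those within B exceeded those between the classes on mus. Over all pairs those within A did so too, as given above. Pairs were not matched for distance in these contrasts. On the left, pairs within A averaged 0.0489, within B 0.120 and between 0.0492. On the right they averaged 0.0286, 0.0650 and 0.0316. With classes from cas or from gene number, the share of mus over all pairs ran from 1.42% with pairs at least 5 Mb apart to 6.75% with classes from gene number. Dividing each matrix by its SD, which gives both the same spread, made it 6.32%. With classes from mus the order turned, with 0.145 on mus, which then chose the classes, and -0.00349 on cas.

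Bins were also put in 5 classes by their mean cas correlation with A bins less that with B bins. This order comes from cas, so a fall on cas is built in. The gradient over the classes was flat on mus. From the B end, pairs of the lowest class with the next 4 classes in turn averaged 0.215, 0.115, -0.0236 and -0.149 on cas. The same pairs on mus had 0.0258, 0.0257, 0.0266 and 0.0197. Cas fell at each step. On mus the value fell from pairs within the lowest class to those with the next, stayed nearly level over 3 classes and was lowest with the last.

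Principal components gave each copy its own main axis. The first component held 79.5% of the variance on cas and correlated with gene number per bin at 0.515 and with the side of Dxz4 at -0.0534. On mus it held 30.2%, and its correlations were 0.00758 with gene number and 0.483 with side. Its medians on mus were highest in the blocks from 80 to 90 Mb (1.90) and 90 to 100 Mb (1.62), right of Dxz4, and lowest from 60 to 70 Mb (-1.21), left of it. They were also below 0 in each block from 120 to 170 Mb, right of Dxz4, with -0.150 at 120 to 130 Mb and -0.651 at 140 to 150 Mb. The first component of mus thus did not simply part the 2 sides. The third component of mus, with 6.44% of the variance, correlated with side at 0.580. The first components of the copies were nearly unrelated, with a size of r of 0.0360. The second components were alike, with a size of r of 0.837, and both were high at 30 to 50 Mb and at 110 to 130 Mb. This component held 14.0% of the variance on mus and 3.47% on cas. At 100 kb the second component of mus matched the third of cas instead, with a size of 0.667.

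Each bin was then given a compartment score: how well its profile correlated on average with A bins, less the average with B bins, so that a value above 0 means a profile nearer to A. The scores of cas ran from -0.511 to 0.464 with a median size of 0.280. Those of mus ran from -0.0572 to 0.0716 with a median size of 0.0169. The sign was the same on both copies in 349 of 588 bins (59.4%). It depended on side, with 98 of 231 bins left of Dxz4 (42.4%) and 251 of 356 right of it (70.5%). On mus 81.0% of left bins but 19.4% of right bins had a score above 0, against 36.4% and 34.8% on cas. A share of equal signs depends on these shares, so alone it does not measure agreement bin by bin. Over bins, the scores of the copies correlated at 0.314 on the left and 0.493 on the right. The mus score thus followed the side of Dxz4 as well as A and B. The numbers of A and B bins differed between the sides, with 51 and 38 on the left and 67 and 80 on the right.

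A score from bins of the same side only was less bound to side. By it 390 of 587 bins (66.4%) had the same sign on both copies, and the scores correlated over bins at 0.541 on the left and 0.381 on the right. Class B bins had medians of -0.0818 on the left and -0.0423 on the right of mus, against -0.463 and -0.446 on cas. Class A bins had medians near 0 on mus, -0.00105 and 0.00177, against 0.296 and 0.278 on cas. By this score, then, class B bins of mus leaned to B on both sides, while class A bins leaned to neither class. The score was not matched for distance, and similarity fell steeply with distance on mus. The part of distance in these medians was not tested. The correlations of the scores are descriptions over bins that share a matrix.

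**Figure D4:**
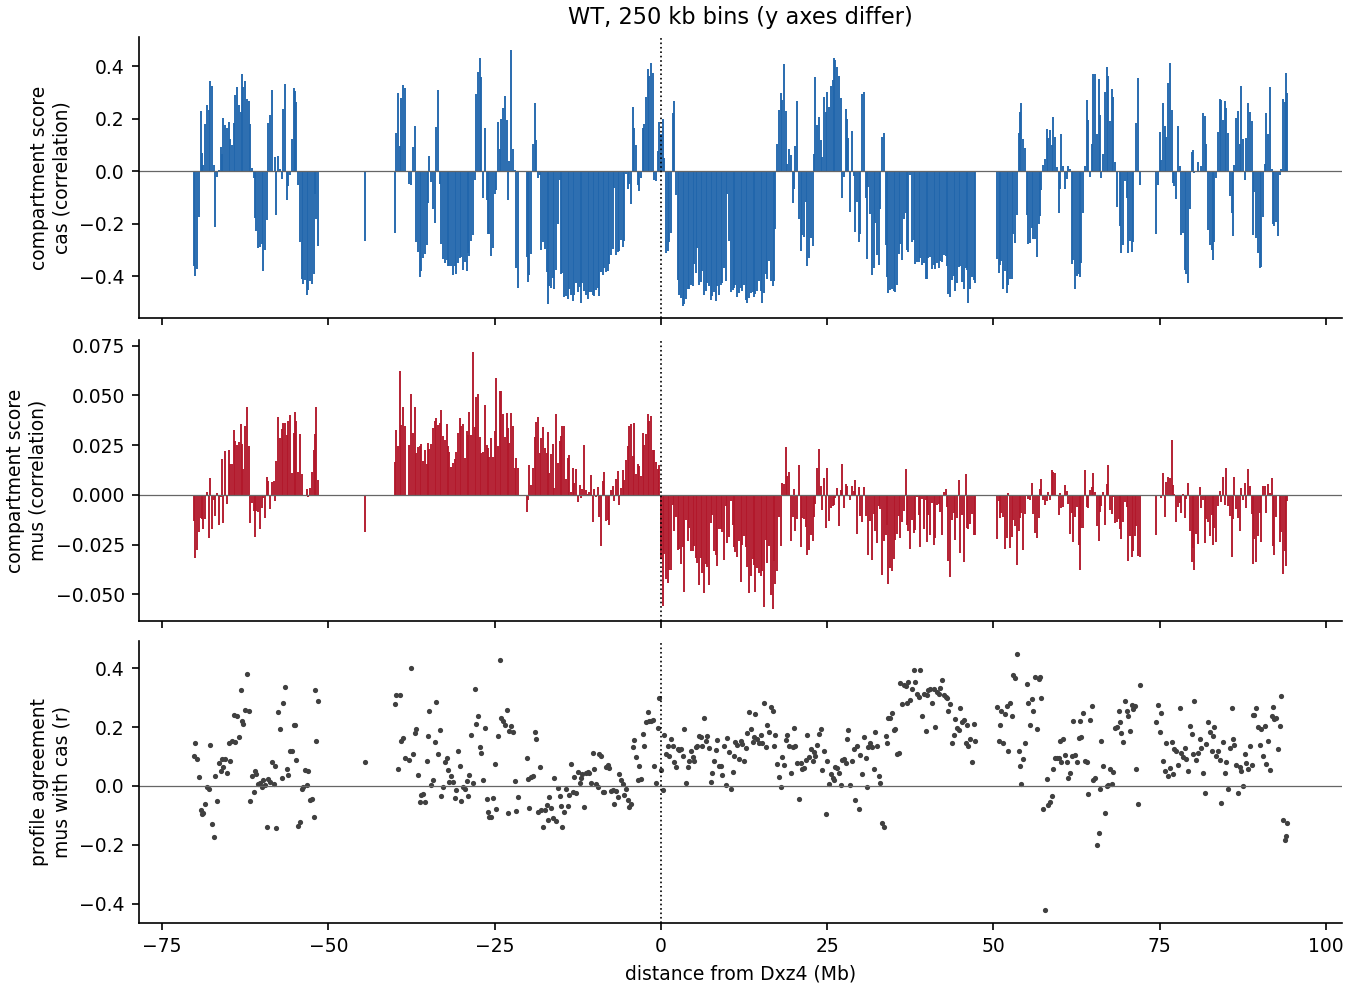
Compartment score of cas (top) and mus (middle) and the agreement of the mus and cas profiles of a bin (bottom, Pearson r) for 588 WT bins by distance from Dxz4 in Mb; the y axes differ in scale. Cas alternates in sign along the whole chromosome, whereas mus is above 0 in 81.0% of bins left of Dxz4 and in 19.4% right of it.

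The fourth question was where the copies agree. Over 168616 bin pairs at least 2 Mb apart the matrices correlated at 0.0974 (0.0724 to 0.133), and at 0.0341 at 100 kb. Agreement lay among close pairs, with 0.268 at 2 to 5 Mb. It was 0.0150 at 10 to 20 Mb and -0.00357 at 20 to 50 Mb, the distances at which the Dxz4 contrast had opposite signs. Beyond 100 Mb it was 0.123.

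For each bin, profile agreement is the correlation of its mus with its cas values over bins at least 2 Mb away. It ran from -0.421 to 0.448 with a median of 0.104 (0.0853 to 0.131), and was below 0 in 107 bins (18.2%) and at least 0.3 in 40. Disagreement was more common on the left, with 77 of 231 bins below 0 (33.3%) against 30 of 356 on the right (8.43%). By block the median was highest at 110 to 120 Mb (0.302) and 120 to 130 Mb (0.208), where 0 bins were below 0. It was lowest at 60 to 70 Mb (0.00580), with 19 of 40 bins below 0. The mean correlation of a bin with bins up to 1 Mb away correlated with its profile agreement at 0.0838 on mus and 0.165 on cas.

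The bins of highest and lowest agreement that hold genes and kept their sign at 100 kb were these. The highest was chrX:38000001-38250000, with 0.401. It holds Rhox10 to Rhox13, homeobox genes of testis and placenta, and Zbtb33, which encodes the methyl-DNA binding protein Kaiso. Next came Dach2, a transcription cofactor gene at chrX:113500001-113750000, with 0.393, and Klhl4 at chrX:114500001-114750000, with 0.392. Both lie in a gene-poor stretch with scores below 0 on both copies, -0.0192 on mus and -0.260 on cas for Dach2. The lowest was chrX:169250001-169500000 with -0.185, which holds Hccs, the gene of a haem ligase for cytochrome c. The bin of Slc38a5, an amino acid transporter gene, had -0.174, and that of Col4a6, a basement membrane collagen gene, had -0.159. Col4a6 scored 0.351 on cas and -0.0232 on mus.

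In squares of 10 Mb, 60 of 153 block pairs had opposite sign on the copies. Of these, 31 were above 0 on mus and below 0 on cas, and 29 were the reverse. The widest gap was between the blocks from 60 to 70 and from 80 to 90 Mb, which face each other across Dxz4, with -0.0350 on mus and 0.266 on cas. At 100 kb these were -0.0195 and 0.0608. Both blocks scored as B on cas, with medians of -0.433 and -0.442. In the opposite direction, the block from 60 to 70 Mb with that from 140 to 150 Mb had 0.103 on mus and -0.0113 on cas.

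Gene lists were placed on these scores by gene midpoint. They are described by counts beside those of all 588 bins, of which 35.5% scored above 0 on cas and 43.5% on mus. Some lists share bins, as the structural and escape lists do at Firre, so the lists are not separate observations. The mus score followed the side of Dxz4, and list counts and medians were not matched for side. Left and right bins numbered 1 and 3 for structural loci, 5 and 7 for escape genes and 8 and 5 for silenced genes. They numbered 6 and 6 for fibroblast genes, 5 and 8 for neuronal genes and 12 and 19 for testis and placenta clusters. Over all bins they numbered 231 and 356. Of 5 bins of structural loci, 4 scored above 0 on cas and 3 on mus. The Dxz4 host transcript scored 0.143 on cas and -0.0323 on mus. Firre went the other way, with -0.0851 on cas and 0.0320 on mus. Xist, its antisense partner Tsix and Jpx, a noncoding activator of Xist, share a bin that scored 0.236 on cas and 0.00559 on mus. Ftx, a noncoding locus of the same region, had 0.201 and 0.00467, and Rlim, a ubiquitin ligase gene that activates Xist, had 0.126 and -0.000734. Xist, Ftx and Rlim lie in adjacent bins. All 3 bins were above 0 on cas and near 0 on mus.

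Escape genes, which stay active on the silenced X, and silenced genes both lay mostly above 0 on cas. Of 12 bins of escape genes, 10 were above 0 on cas and 9 on mus, with medians of 0.231 and 0.00553. Utp14a, which encodes a ribosome assembly factor, had 0.430 on cas and 0.0290 on mus, and Eif2s3x, a translation initiation factor gene, had 0.409 and 0.00548. The other 2 were Firre, given above, and the bin that Pbdc1 shares with 5530601H04Rik, with -0.115 on cas and -0.0197 on mus. Of 13 bins of silenced genes, 12 were above 0 on cas and 9 on mus, with medians of 0.310 and 0.0132. Hprt, a purine salvage enzyme gene, had the highest cas score of all bins, 0.464, and 0.0414 on mus. Ogt, the gene of the enzyme that adds GlcNAc to proteins, had 0.433 on cas and -0.00509 on mus. The smallest cas minus mus values were at Fmr1, an RNA-binding protein gene, with -0.0647 and -0.00287, and Phf6, a chromatin protein gene, with 0.0391 and 0.0262.

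The fibroblast list holds matrix, cytoskeletal and other genes that fibroblasts are known to express. Of 12 bins, 12 were above 0 on cas and 7 on mus, with medians of 0.249 and 0.00120. Flna, which encodes the actin crosslinker filamin A, had 0.413 on cas and 0.0397 on mus. Fhl1, a LIM protein gene, had 0.120 and 0.0364, and Srpx2 had 0.126 and 0.00165. Profile agreement was below 0 in 5 of the 12 bins, against 18.2% of all bins. Of the 12, 6 lie left of Dxz4, where the share over all bins was 33.3%. In the other lists it was below 0 in 0 of 5 bins of structural loci, 2 of 12 of escape genes and 1 of 13 of silenced genes. The neuronal list had 1 of 13 and the testis and placenta clusters 6 of 31.

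The neuronal list and the testis and placenta clusters had lower medians on cas than the lists above. Of 13 neuronal bins, 7 were above 0 on cas and 4 on mus, with medians of 0.0206 and -0.00589. The scaffold gene Dlg3 had 0.244 on cas and -0.0132 on mus, and Nlgn3, a synaptic adhesion gene, had 0.349 and -0.00584. Il1rapl1 and Il1rapl2, very long genes of synaptic receptors, had -0.462 and -0.398 on cas against -0.0231 and -0.00589 on mus. Of these bins, only that of Il1rapl1 was in class B. Of 90 genes of testis and placenta clusters, 62 had data, in 31 bins, of which 6 were above 0 on cas and 14 on mus. Their medians were -0.211 on cas and -0.00201 on mus, near those of all bins, -0.190 and -0.00396. The bin of Rhox1 and Rhox2a had 0.316 on cas and 0.0344 on mus, and that of Xlr3c and Xlr5c had 0.283 and 0.0306. Samt3 and Mageb4, in adjacent bins, had -0.460 and -0.453 on cas but -0.00311 and -0.0153 on mus.

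**Figure D5:**
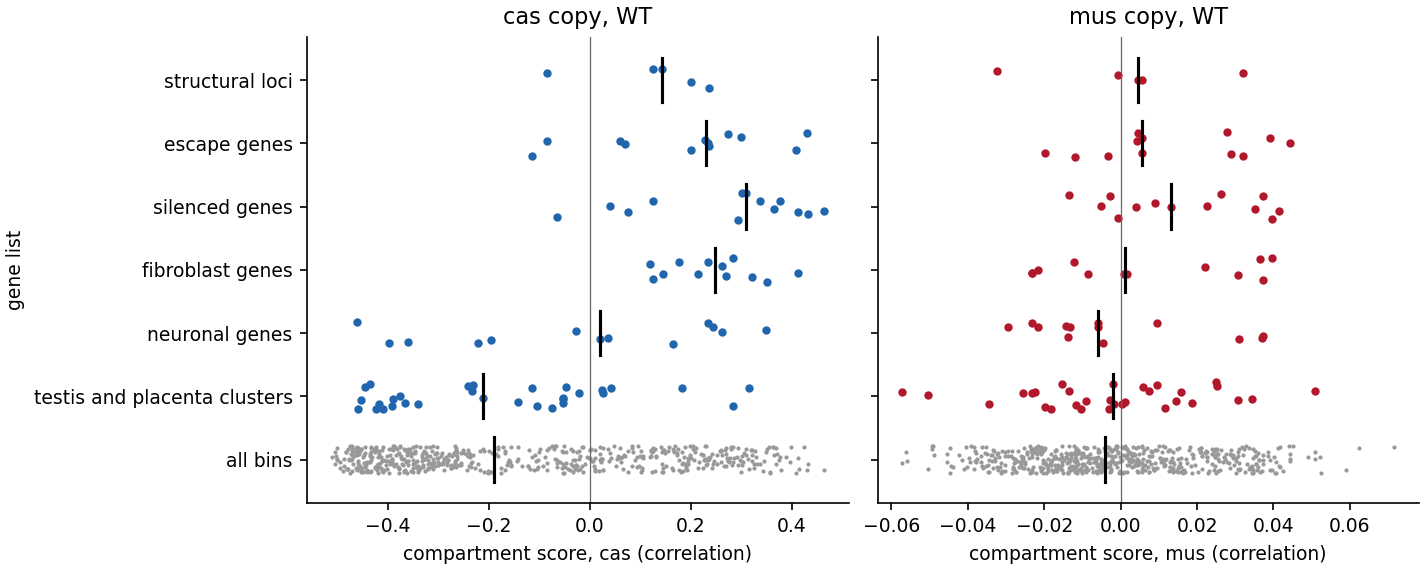
Compartment score (x axis, differing in scale) on the cas (left) and mus (right) copy of WT for the bins of 6 gene lists and for all 588 bins; each point is a bin, vertical scatter has no meaning, and black bars are medians. The 13 silenced-gene bins have medians of 0.310 on cas and 0.0132 on mus, against -0.190 and -0.00396 over all bins. Of the 13, 8 lie left of Dxz4, against 231 of all 588, and medians are not matched for side.

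On cas the list medians ran from -0.211 for testis and placenta clusters to 0.310 for silenced genes. On mus the same lists had -0.00201 and 0.0132, and the lowest median there was that of the neuronal list, -0.00589.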

How the data were processed

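Hi-C was made from 2 WT samples of TTF, cut with HindIII after fixation with 2% formaldehyde, per the labels' protocols. Sample labels and file headers describe Hi-C, although the design text speaks of an Xist-binding assay. The deposited values are a score, a correlation coefficient for each bin pair, made by the authors after combining replicates and splitting reads by copy, per the file headers. The tools were cutadapt, Bowtie2, HOMER and Juicer and the build mm10, per the submitters' processing notes. Tool versions, contact normalization, the rule for assigning reads to copies and read numbers are, in the sources used here, not given. Low depth shrinks correlations.

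Bins that were all 0 on either copy were left out (95 at 250 kb, 246 at 100 kb). Unless stated, bins were of 250 kb and pairs under 2 Mb apart were not used, except in the decay. Values were computed with Python 3.11.15, NumPy 2.4.6, pandas 2.3.3 and Matplotlib 3.10.9. Splits lay at least 20 Mb from either end of the covered chromosome. No test was run, because each copy has 1 combined matrix. Genes were placed by their midpoint with the RefSeq annotation (GRCm38.p6). The members and lists were chosen with earlier results of these data known. Genes named are all structural loci, the 2 bins of each other list with the highest and the 2 with the lowest cas minus mus score, the 3 highest and 3 lowest gene-holding bins by profile agreement with the same sign at 100 kb, and the 3 gene-holding bins of each copy with the highest boundary scores, at least 1 Mb apart. Functions were tested on simulated matrices. Alternatives are given in the closing section.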

Additional observations from a re-analysis of the deposited data

Results flagged for a closer look

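The copies had opposite signs in the 3 measures flagged here, and with 1 combined matrix a copy none of these differences was tested. The Dxz4 contrast of pairs 10 to 20 Mb apart was 0.113 on mus and -0.0934 on cas. That of pairs 20 to 50 Mb apart was 0.0536 on mus and -0.0349 on cas. Pairs 100 to 170 Mb apart had a mean correlation of 0.0335 on mus and -0.0114 on cas. The 10 to 20 Mb value on cas was 0.0293 without the block from 60 to 70 Mb.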

How the results depend on the processing

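Under the alternatives other than leaving out blocks, 40 results were recomputed 174 times; 113 values kept their sign and moved no further than leaving out a block did, or than a fixed margin for shares and components, 55 moved further and 6 changed sign. Leaving out blocks changed the sign of 10 values. No paired analysis was possible because the replicates were combined before deposit and no test was run. Depth is unknown, and its part in the small mus values was not tested.

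With 100 kb bins correlations were smaller. The mus minus cas difference beyond 100 Mb was 0.00762, the Dxz4 contrast over all distances 0.00274 on mus (changed sign) and -0.00691 on cas, that of pairs 10 to 20 Mb apart 0.0372 on mus, 20 to 50 Mb 0.0193 and -0.00655, and 2 to 50 Mb 0.0223 and -0.00715. The A/B contrast was 0.00204 and 0.0974, matrix similarity 0.0341, median profile agreement 0.0334 with 28.3% of bins below 0, and the first component 11.6% and 39.6%.

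Dividing each matrix by its SD changes the unit. The decay differences were then 0.985 (2 to 5 Mb), -0.164 (20 to 50 Mb) and 0.593 (beyond 100 Mb). The Dxz4 contrast was -0.223 on cas over all distances, 1.70 (mus) and -0.720 (cas) for pairs 10 to 20 Mb apart, 0.808 and -0.269 for pairs 20 to 50 Mb, and 0.966 and -0.293 for pairs 2 to 50 Mb. The A/B contrast was 0.177 and 2.80, with mus at 6.32% of cas.

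The Dxz4 contrast of mus over all distances also changed sign without the weakest bins (0.00190), with the split 1 bin to the right (0.000600), with same-side weights (0.0664) and under 50 Mb (0.0640), and ran from -0.0172 to 0.00956 when blocks were left out. That of cas at 10 to 20 Mb ran from -0.214 to 0.0293.

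The A/B contrast of mus was 0.00510 with pairs at least 5 Mb apart (1.42% of cas), 0.00765 with the mean of each distance subtracted, 0.145 with classes from mus, 0.0204 and 0.00745 with classes of 10% and 30%, 0.0227 left and 0.0181 right of Dxz4. That of cas was 0.131 with classes from gene number, -0.00349 with classes from mus (changed sign), 0.449 and 0.291 with classes of 10% and 30%, and 0.347 and 0.378 by side. Mus was 6.75% of cas with classes from gene number, 4.55% with classes of 10%, and 6.54% and 4.79% by side; with classes from mus no percentage was formed, since the cas contrast was near 0. Subtracting the mean of each distance gave a median profile agreement of 0.0588 with 35.4% of bins below 0. Where a value moved, the cause was not tested. The other moves, 9 of 24, were in shares of list bins with boundary scores above the median under other windows.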
